A study of Mus musculus with 6 samples.

Results

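The genes described here are 10 mouse genes of growth and cell cycle control that have been reported as targets of the let-7 microRNAs: Arid3a, Arid3b, Nras, Cdk6, Plagl2, E2f5, E2f6, Cdc25a, Mycn and Ccnd2. They were chosen by symbol in the annotation of the exon array, and each is represented by its brightest transcript cluster over 6 arrays, a transcript cluster being the set of probes that the array designers assigned to one locus. All 10 were found among 18997 genes with a cluster of their own, and each of the 10 had a single such cluster. The RNA came from 4 Dicer-null clones (labelled genotype Dicer-/-, clones 6.8 and 6.9, 12.2 and 12.4) and from 2 Dicer-carrying clones (labelled genotype Dicer+/+, clones 6 and 12), 1 array per clone, all cultured undifferentiated. Clones 6.8 and 6.9 derive from clone 6, and clones 12.2 and 12.4 from clone 12, so each null clone has a parent and the 2 null clones of a line share that parent's array. All the cells descend from bone marrow of the hindlimb of a mouse aged 1 year with floxed Dicer alleles, and all carry SV40 large T antigen from a retrovirus. The null clones were in addition infected with an adenovirus encoding Cre recombinase and GFP, sorted for GFP and cloned a second time. No parent was taken through those steps, so they cannot be told apart from Dicer loss. Nothing in the labels says that a clone was cultured more than once, and all p-values measure a spread between clones. In fits with the parental line as a block, the difference in level between the lines is taken out of that spread.

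Most microRNAs reach their working length only after Dicer, an RNA-cutting enzyme, has trimmed their hairpin precursors, so cells without it lose most of them. A mature microRNA guides an Argonaute protein to messenger RNAs that pair with its seed, bases 2 to 8 from its 5′ end, and such messages are destabilised and translated less. The let-7 family accumulates as cells leave the embryonic state and is known for holding down genes of early development and of proliferation. The 10 genes act at successive points of that programme: a growth factor signal through Nras, entry into the cell cycle through Cdk6, Ccnd2 and Cdc25a, and transcription through the E2F, Arid3, Plag and Myc families.

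The mature let-7 microRNAs are shown because the 10 genes are grouped as reported targets of this family. The RefSeq table of mouse assembly GRCm38.p6 held 13 entries of the family. The seed stands in capitals, and 12 of the 13 loci carry the seed GAGGUAG, in 10 distinct mature sequences, of which 6 are printed:
mmu-let-7a-5p: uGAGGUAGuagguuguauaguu
mmu-let-7b-5p: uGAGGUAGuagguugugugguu
mmu-let-7d-5p: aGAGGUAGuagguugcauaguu
mmu-let-7g-5p: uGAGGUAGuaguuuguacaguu
mmu-let-7i-5p: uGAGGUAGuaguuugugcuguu
mmu-miR-98-5p: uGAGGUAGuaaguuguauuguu
The remaining entry, mmu-let-7j, ends its seed differently, as GAGGUAU:
mmu-let-7j: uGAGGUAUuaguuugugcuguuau
The 6 printed with the common seed lie on chromosomes 13, 15, 13, 9, 10 and X in the order given, on the minus strand for let-7a, let-7d and let-7i and on the plus strand for the others. The arrays measured long RNA, and no microRNA level or target site was measured.

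Values are log2 levels as deposited, and a difference of 1 is a doubling. The median over genes was 3.62 to 3.67 on the null arrays and 3.70 and 3.75 on the Dicer-carrying arrays; precision is limited by there being 6 arrays. In a limma fit with the parental line as a block, 31 genes passed an adjusted p of 0.05 as higher in the null clones and 81 as lower. Leaving out 1 array left between 0 and 3 higher and between 0 and 15 lower genes. Dicer1 itself had levels of 4.43 to 4.66 in the null clones against 4.48 and 4.83 in clones 6 and 12, on a cluster that does not single out the deleted part and so checks no label. The 14 measured mesenchymal markers had a median level of 7.07 to 7.96 in the null clones against 7.75 and 7.41 in clones 6 and 12. One of the 14, Thy1, was dim, with 2.57 to 2.74 in the null clones against 2.52 and 2.61 in the parents. Nt5e (2.69 to 4.24 against 3.97 and 4.38) and Lepr (2.70 to 3.06 against 2.91 and 3.02) were also dim. The largest change among them was that of the adhesion molecule Vcam1, 3.16 ± 0.37, with S100a4 at -2.91 ± 0.59 and Col1a2 at -1.01 ± 0.20, and none passed in limma, although Vcam1 did with dim genes left out and with trend and robust moderation. No haematopoietic or endothelial marker had a mean over the arrays above 4.14, and the largest changes there were 0.27 for Cd68 and -0.25 for Egfl7. Osteoblast markers differed between the groups: their median level was 3.26 to 7.19 in the null clones against 9.06 and 9.14 in the parents. Of 9 osteoblast markers listed, Bglap, Spp1 and Runx2 were not measured. Where 18.9% of all genes were below the parent in all 4 null clones, 6 of 6 measured osteoblast markers were. Of these Phex, an endopeptidase of bone cells, fell by 5.25 on the log2 scale (limma, adjusted p = 0.0048), a call lost without clone 6 (0.0571), clone 12 (0.0663) or clone 12.4 (0.0545). The part of these shifts in the values below was not tested.

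Of the 10 genes, 9 had a higher level in each null clone than in its own parent, and the tenth, Mycn, had a lower level in each. Over all genes tested, 13.1% lay above the parent in all 4 null clones and 18.9% lay below it. For 7 of the 10, all 4 null clones lay above both parents, against 9.44% of all genes. Mycn lay below both parents in all 4, as did 13.9% of all genes. The median change of the 10 was 0.97, and that of all genes was -0.02. In these cultures fewer cells expressing a gene and less of its RNA per cell cannot be told apart.

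None of the 10 passed the threshold when p was adjusted over all genes. In limma 0 of 10 were called higher, with 0.163% of all genes called, and 0 of 10 were called lower, with 0.426% called. At an unadjusted p under 0.05 in the same fit, 7 of the 10 were higher, where 5.82% of all genes were, and 1 was lower, where 7.9% were. The adjusted p of the 10 lay between 0.0934 for E2f6 and 0.737 for E2f5, and the 4 genes with a mean change over 1 were Ccnd2, Cdk6, Arid3a and Plagl2, a size that 2.97% of all genes reached.

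**Figure D1:**
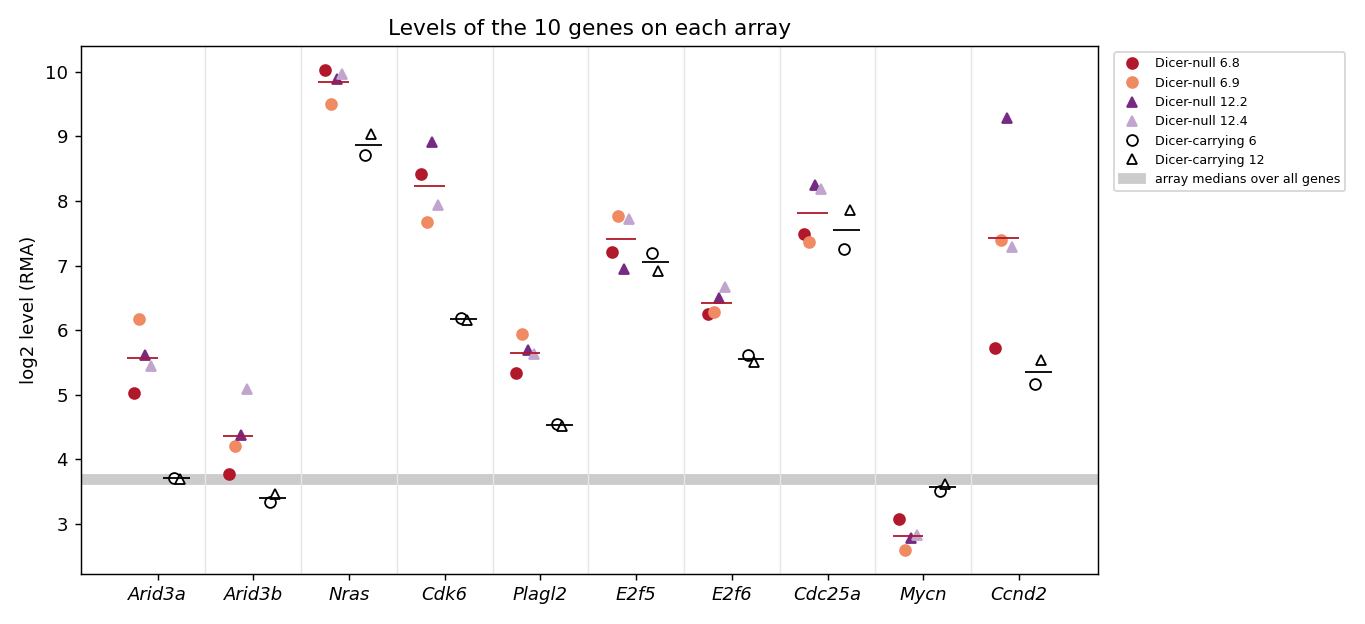
Log2 level (vertical axis) of each of the 10 genes on each of 6 arrays, with null clones as filled symbols on the left of each gene and their parents as open symbols on the right; circles are line 6, triangles line 12, and horizontal bars group means. The grey band spans the array medians over all genes, 3.62 to 3.75. The groups overlap for E2f5 and Cdc25a and are separate for the other 8 genes. Over all genes, 9.44% lay above both parents in all 4 null clones and 13.9% below both.

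Cdk6 is the kinase that, bound to a D-type cyclin, phosphorylates the retinoblastoma protein and opens the way to S phase. Its level was 8.42, 7.67, 8.91 and 7.94 in null clones 6.8 and 6.9, 12.2 and 12.4, against 6.19 and 6.16 in clones 6 and 12. Every null clone was above both parents, by at least 1.48, and the parents differed from each other by 0.03. The mean change was 2.06 ± 0.37 (SE of the limma fit), or 4.17-fold with a 95% interval of 2.15 to 8.08, and 99.5% of all genes had a lower change. Its adjusted p in limma was 0.110.

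Ccnd2 encodes cyclin D2, a partner of Cdk6. Its level was 5.73, 7.39, 9.28 and 7.28 in null clones 6.8 and 6.9, 12.2 and 12.4, against 5.16 and 5.53 in clones 6 and 12. The null clones were all above the parents, but clone 6.8 only by 0.20 over clone 12, and they ranged over 3.55 log2 units, the widest span of the 10 genes. The mean change of Ccnd2 was 2.07 ± 0.79 and its fold change of 4.21 had a 95% interval of 1.001 to 17.7. The adjusted p of Ccnd2 in limma was 0.364, with a mean change close to that of Cdk6 and a standard error of 0.79 against 0.37.

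Arid3a and Arid3b encode DNA-binding proteins with an AT-rich interaction domain, and Arid3a is also known as Bright, a factor first studied in B cells. Arid3a had levels of 5.03, 6.17, 5.61 and 5.45 in null clones 6.8 and 6.9, 12.2 and 12.4, against 3.70 and 3.70 in clones 6 and 12. The parents sat near the median of all genes, so that their detection is uncertain, and every null clone was above them by at least 1.32. The mean change was 1.86 ± 0.33, or 3.63-fold with a 95% interval of 1.98 to 6.64 (limma, adjusted p = 0.110).

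Arid3b had levels of 3.77, 4.21, 4.37 and 5.09 in null clones 6.8 and 6.9, 12.2 and 12.4, against 3.34 and 3.47 in clones 6 and 12. The groups did not overlap, yet clone 6.8 stood only 0.31 above clone 12, and the null clones spanned 1.32 log2 units. Both parents lay under the medians of all genes on their arrays and clone 6.8 lay close to its own, so that detection is uncertain there and the change of Arid3b rests on parental levels that may be background. Its mean change was 0.96 ± 0.29 with a 95% interval of 0.21 to 1.70 (limma, adjusted p = 0.258). The difference between the changes of the 2 Arid3 genes was not tested.

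Nras is one of the Ras GTPases that pass growth factor signals to the MAP kinases. Its level was 10.03, 9.50, 9.88 and 9.97 in null clones 6.8 and 6.9, 12.2 and 12.4, against 8.71 and 9.04 in clones 6 and 12. The null clones were all above the parents, by at least 0.47. The mean change of 0.97 ± 0.18 corresponds to 1.96-fold with a 95% interval of 1.43 to 2.70. Its adjusted p in limma was 0.112.

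Plagl2 is a zinc finger transcription factor of the PLAG family. Its level was 5.33, 5.94, 5.70 and 5.63 in null clones 6.8 and 6.9, 12.2 and 12.4, against 4.54 and 4.52 in clones 6 and 12. The parents were 0.02 apart and every null clone was above them by at least 0.79. The mean change was 1.12 ± 0.19, or 2.17-fold with a 95% interval of 1.53 to 3.07 (limma, adjusted p = 0.105).

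E2f5 and E2f6 are both regarded as repressors within the E2F family, the DNA-binding factors that time the genes of S phase. E2f5 acts with the pocket proteins, the relatives of the retinoblastoma protein, while E2f6 does not bind them and works with polycomb proteins. E2f6 had levels of 6.25, 6.28, 6.496 and 6.66 in null clones 6.8 and 6.9, 12.2 and 12.4, against 5.61 and 5.50 in clones 6 and 12. The groups were 0.64 apart and the null clones spanned 0.41, the smallest span of the 10 genes. The mean change of E2f6 was 0.87 ± 0.14, or 1.82-fold with a 95% interval of 1.42 to 2.34. Its adjusted p of 0.0934 in limma was the lowest of the 10.

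E2f5 had levels of 7.21, 7.77, 6.94 and 7.72 in null clones 6.8 and 6.9, 12.2 and 12.4, against 7.20 and 6.92 in clones 6 and 12. The groups overlapped: clones 6.8 and 12.2 were within 0.03 of their own parents, and clones 6.9 and 12.4 were 0.57 and 0.81 above theirs. The mean change was 0.35 ± 0.28 with a 95% interval of -0.39 to 1.09 (limma, adjusted p = 0.737), and it was 0.18 without clone 12.4. After a further quantile normalisation clone 12.2 lay on the other side of its parent, at a difference of -0.05, and 8 of the 10 genes were then higher in all 4 null clones.

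Cdc25a is the phosphatase that activates the cyclin-dependent kinases at the start of S phase. Its level was 7.48, 7.37, 8.25 and 8.18 in null clones 6.8 and 6.9, 12.2 and 12.4, against 7.25 and 7.86 in clones 6 and 12. The groups overlapped, and both null clones of line 6 lay below the parent of line 12. Against their own parents the differences were 0.23, 0.11, 0.39 and 0.32, with a mean of 0.26 ± 0.10 (limma, adjusted p = 0.380), and the mean was 0.17 without clone 12. The line term of the same fit, line 12 minus line 6, was 0.73 ± 0.10 for Cdc25a, with an unadjusted p of 0.000863 in limma and 0.941 after adjustment.

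Mycn, a relative of Myc expressed in embryonic tissues, was the gene that went the other way. Its level was 3.07, 2.60, 2.78 and 2.82 in null clones 6.8 and 6.9, 12.2 and 12.4, against 3.51 and 3.62 in clones 6 and 12. All null clones lay below both parents, by at least 0.44, and all 6 values were under the medians of all genes, so detection is uncertain in both groups. The mean change was -0.75 ± 0.16 with a 95% interval of -1.17 to -0.32 (limma, adjusted p = 0.152).

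**Figure D2:**
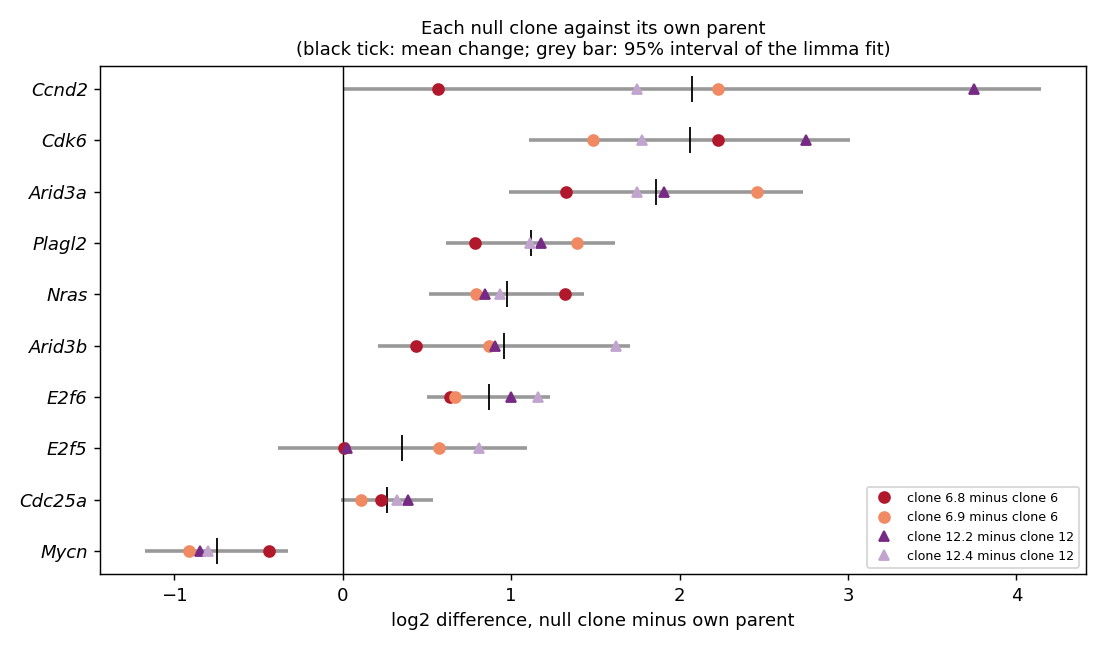
Log2 difference between each null clone and its own parent (horizontal axis) for the 10 genes, ordered by mean change. Symbols are the 4 null clones, black ticks the mean change and grey bars the 95% interval of the limma fit. The interval leaves out 0 for 8 of the 10 genes, which equals an unadjusted p under 0.05. At that level 5.82% of all genes were higher and 7.9% lower, and none of the 10 passed after adjustment.

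The null clones did not share 1 order. The median difference of the 10 genes from the parent was 0.60 in clone 6.8, 0.83 in clone 6.9, 0.95 in clone 12.2 and 1.14 in clone 12.4, where the medians over all genes were 0.01, 0.01, -0.02 and -0.10. Clones 6.9 and 12.2 each had the highest level for 3 of the 10 genes, and clones 6.8 and 12.4 each for 2. Clone 6.8 had the smallest difference from its parent for 7 of the 10 genes, with Nras, Cdk6 and Cdc25a as the exceptions. The share of all genes with their smallest difference in clone 6.8 was not counted. The number of the 10 genes with a difference over 1 was 3 in clone 6.8, 4 in clone 6.9, 4 in clone 12.2 and 6 in clone 12.4, against 3.04%, 4.58%, 5.14% and 5.14% of all genes.

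Arid3a and Plagl2 followed each other closely. In both the order of the null clones was 6.9, 12.2, 12.4 and 6.8 from high to low, and Mycn had the reverse order. All 6 values of Mycn were under the medians of all genes and its null clones spanned 0.47, so that order rests on uncertain detection. Over the 6 arrays Pearson's r was 0.998 between Arid3a and Plagl2, -0.994 between Arid3a and Mycn and -0.996 between Plagl2 and Mycn. These are descriptions over 6 arrays that include the difference between the groups, from pairs picked after all 45 had been computed, and the arrays share the labelling and normalisation. Other pairs were looser, such as 0.75 for Arid3a with Arid3b and 0.75 for Cdk6 with Ccnd2.

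The genes most like each of the 10 were sought among 1778 named genes with a mean level of at least 6 and an SD over 0.5, for the 6 genes whose own SD exceeded 0.5. Over the 6 arrays Arid3a was most like Wfs1, an endoplasmic reticulum membrane protein, with r of 0.99, and Atp13a3, with r of 0.98. Plagl2 was most like Wfs1 and the laminin chain Lamb1, both with r of 0.99. Cdk6 was most like Wdr55 and the chloride transporter Clcn5, both with r of 0.98, and Nras was most like the lysosomal phospholipase Pla2g15, with r of 0.99, and Erlin2, with r of 0.98. Arid3b was most like the corepressor Lcor, with r of 0.97, and the activin receptor Acvr2a, with r of 0.96. Ccnd2 was most like the scramblase Plscr1, with r of 0.97, and the apoptosis effector Bak1, with r of 0.96. Their mean changes ran from 0.93 for Lcor to 3.04 for Lamb1, a direction that the choice by likeness to genes higher in the null clones fixes. Wfs1, Pla2g15, Acvr2a and Lamb1 reached the minimum level of 6 through the null clones, with means in the parents of 5.01, 5.39, 5.48 and 5.61. None of the 11 passed the threshold in limma. Lamb1, Pla2g15 and Clcn5 passed without the block, with dim genes left out and with trend and robust moderation, and Lamb1 also with a random block and without clone 6.8.

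The next question was whether the lines differed in their response. The mean change was larger in size in line 12 for 8 of the 10 genes, and smaller for Arid3a and Nras. The matching share over all genes was not counted. Differences over 1 were seen for 5.14% of all genes in each null clone of line 12, against 3.04% and 4.58% in clones 6.8 and 6.9. The widest contrast was that of Ccnd2, with a change of 2.75 in line 12 and 1.40 in line 6, a difference of 1.35 ± 1.68. For E2f6 the changes were 1.08 in line 12 and 0.65 in line 6, a difference of 0.43 ± 0.22 with a 95% interval of -0.21 to 1.07. In the interaction contrast in limma 0 of all genes passed, with 569 at an unadjusted p under 0.05, and the lowest unadjusted p of the 10 was 0.134, for E2f6. With a single parent in each line and 2 degrees of freedom left for the residual, these intervals are wide and do not show that the lines respond alike.

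**Figure D3:**
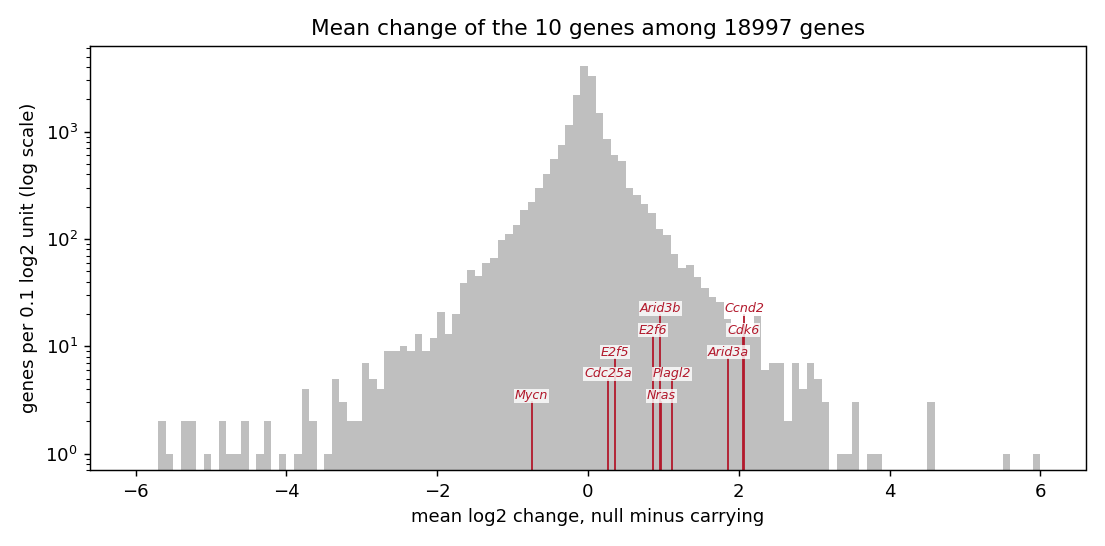
Number of genes per 0.1 log2 unit (vertical axis, log scale) by mean log2 change, null minus Dicer-carrying, for all 18997 genes, with the 10 genes marked in red. Mycn lies at -0.75 and the other 9 between 0.26 for Cdc25a and 2.07 for Ccnd2.

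The relatives of the 10 genes give the setting within each family. Of 23 relatives listed 20 were measured, and 1 passed in limma over all genes: Mras, a Ras-related GTPase of muscle and other tissues, fell. Its level was 3.73, 3.99, 4.86 and 4.74 in null clones 6.8 and 6.9, 12.2 and 12.4, against 5.37 and 6.28 in clones 6 and 12. The differences of Mras from the parents were -1.63, -1.38, -1.42 and -1.54, with a mean of -1.49 ± 0.12 (limma, adjusted p = 0.0305). Mras missed the threshold without the parental block (limma, adjusted p = 0.207), taking the line as random (0.335), with the null clones of a line averaged (0.0704) and with any 1 array left out (0.0815 to 0.290). The 20 had a median change of 0.17, with 3 higher and 3 lower at an unadjusted p under 0.05, where 5.82% and 7.9% of all genes were.

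Among the kinases, Cdk4, the close relative of Cdk6 that binds the same cyclins, had a change of -0.02 ± 0.10 with a 95% interval of -0.29 to 0.25, and its sign turned with the arrays centred and with a further quantile normalisation. Cdk2 and Cdk1 had changes of -0.33 ± 0.17 and -0.72 ± 0.55. Of the D-type cyclins, Ccnd3 was higher by 0.47 to 0.65 in all 4 null clones, a change of 0.56 ± 0.10 (limma, adjusted p = 0.112). Ccnd1 had 9.92, 9.01, 10.9 and 7.86 in null clones 6.8 and 6.9, 12.2 and 12.4, against 9.32 and 9.86 in clones 6 and 12, and so went both ways. In the Plag family, Plagl1, a growth inhibitor that is itself on the list of other reported let-7 targets, had a change of -2.44 ± 0.64 where Plagl2 had 1.12 ± 0.19. The changes of these relatives were not tested against those of the 10 genes.

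Of the other E2F genes, E2f4 had a change of 0.72 ± 0.35, E2f7 one of 0.55 ± 0.25 and E2f3 one of 0.38 ± 0.23, and E2f1, E2f2 and E2f8 had 0.10, 0.03 and 0.31. None of the 6 passed in limma. E2f6 was the one E2F gene of 8 measured whose groups did not overlap. Over all genes, 9.44% lay above both parents in all 4 null clones and 13.9% lay below both. Cdc25b had 0.72 ± 0.24 and Cdc25c -0.42 ± 0.15, on either side of Cdc25a. Myc, itself a reported let-7 target, had 0.33 ± 0.17 and a difference of -0.01 in clone 6.8, and Mycl had -0.05 ± 0.17. In the Ras family, Rras2 and Rras had 0.48 ± 0.16 and 0.36 ± 0.25.

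**Figure D4:**
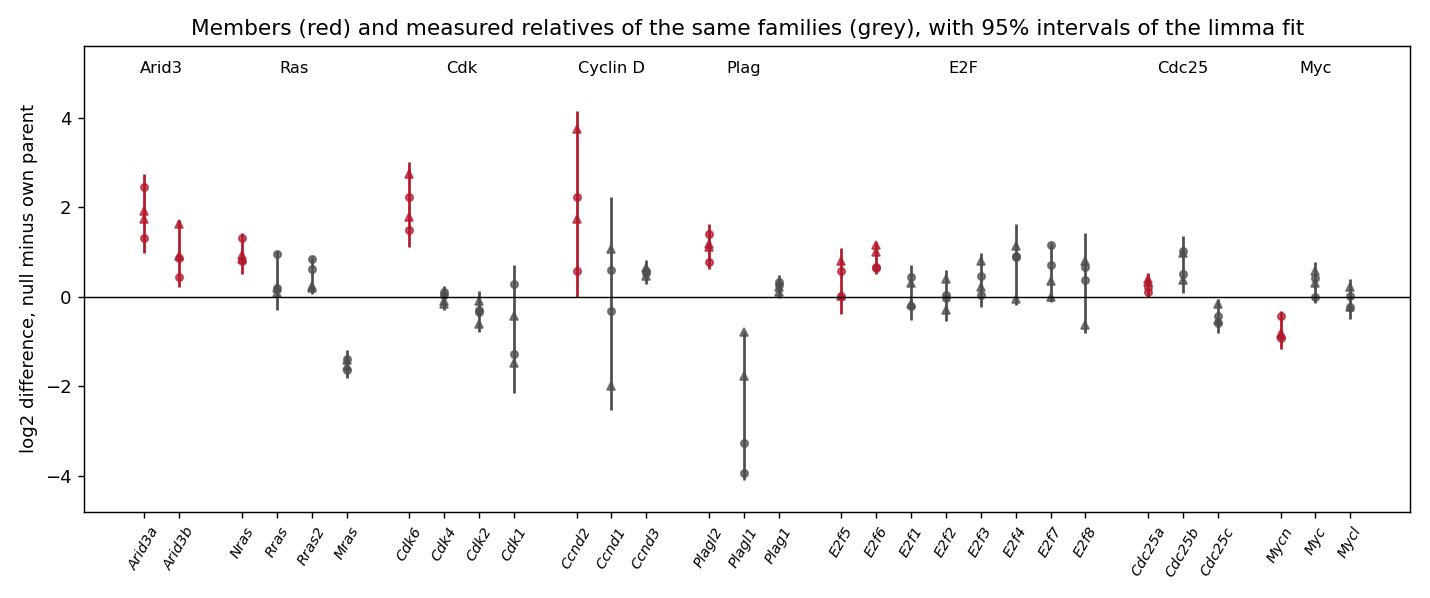
Log2 difference between null clones and their own parent (vertical axis) for the 10 genes in red and 20 measured relatives of the same families in grey. Symbols are the 4 null clones (circles line 6, triangles line 12) and bars the 95% interval of the limma fit. Mras, at -1.49, is the relative that passed the threshold.

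Other reported let-7 targets were read from a list of 44 genes, 37 of them measured. Of these 1 rose and 0 fell past the threshold in limma: Igf2bp1, an oncofetal RNA-binding protein, by 5.59 ± 0.44 at an adjusted p of 0.0305. Igf2bp1 missed the threshold with clones 6, 12, 6.8, 12.2 or 12.4 left out in turn, at adjusted p-values in limma of 0.0851 to 0.247, and its change was 2.99 with all its clusters averaged. At an unadjusted p under 0.05, 8 were higher and 3 lower, where 5.82% and 7.9% of all genes were. The same shares stand beside the counts of the lists below. Above the parent in all 4 null clones lay 14 and below it 4, against 13.1% and 18.9% of all genes. The median change of the 37 was 0.23, against 0.97 for the 10 genes described here. Nr6a1, a germ cell nuclear receptor, had a change of 2.26 ± 0.26, the transcription factor Hic2 one of 1.42 ± 0.22 and the phosphate transporter Slc20a1 one of 1.21 ± 0.22, none past the threshold, although Nr6a1 was without the block, with a random block, with dim genes left out and with trend and robust moderation, and Hic2 was without the block. The 3 lower at an unadjusted p under 0.05 were Plagl1 at -2.44 ± 0.64, Col1a2 at -1.01 ± 0.20 and Imp3 at -0.61 ± 0.17. Imp3 is a gene distinct from Igf2bp3, which had a change of 1.77 ± 1.02. Whether Imp3 belongs on a list of let-7 targets was not checked. Both sets were drawn from the same body of reports and were chosen with earlier results of these data known.

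The pathway downstream of Cdk6 and the E2F genes was read from lists of the retinoblastoma pathway, S phase and mitosis. Of 20 measured genes of the retinoblastoma pathway and its kinase inhibitors 0 passed in limma, with 2 higher and 3 lower at an unadjusted p under 0.05, and the median change was -0.18. Cdkn2d, an inhibitor of Cdk4 and Cdk6, had levels of 7.35, 7.74, 6.99 and 7.57 in null clones 6.8 and 6.9, 12.2 and 12.4, against 8.69 and 8.57 in clones 6 and 12. All null clones of Cdkn2d lay below both parents, with a change of -1.22 ± 0.22 (limma, adjusted p = 0.110). The cyclin Ccne1 had a change of 1.08 ± 0.31 and Rb1 one of -0.81 ± 0.38, with an unadjusted p of 0.0891 in limma for Rb1. Besides Cdkn2d and Ccne1, those at an unadjusted p under 0.05 were Lin9 at 0.27 ± 0.10, Tfdp2 at -1.16 ± 0.38 and Cdkn1c at -0.43 ± 0.13.

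Genes that E2F factors switch on in S phase include those of DNA replication. Of 22 measured 0 passed in limma and 0 had an unadjusted p under 0.05 in either direction, with a median of -0.06 and medians of 0.09, -0.40, 0.14 and -0.08 in clones 6.8 and 6.9, 12.2 and 12.4. The member with the largest change was Prim1, a DNA primase subunit, at -0.49 ± 0.30. Of 17 mitosis genes 0 passed in limma and 1 was higher and 0 lower at an unadjusted p under 0.05, with a median of -0.15, and the largest change was that of the cyclin Ccnb2 at -0.54 ± 0.25. SV40 large T antigen, carried by every clone, binds the retinoblastoma family. Its level and proliferation itself were not measured, and any part of large T antigen in these values was not tested.

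Feedback genes of the Ras and MAP kinase pathway were read beside Nras. Of 14 measured 0 passed in limma, with 3 higher and 0 lower at an unadjusted p under 0.05 and a median of 0.12. The 3 were the MAP kinase phosphatases Dusp4, Dusp5 and Dusp6. Dusp4 had levels of 6.95, 7.58, 6.55 and 7.11 in null clones 6.8 and 6.9, 12.2 and 12.4, against 5.52 and 4.69 in clones 6 and 12. All null clones of Dusp4 lay above both parents, with a change of 1.94 ± 0.27 (limma, adjusted p = 0.0729), which passed with dim genes left out and with trend and robust moderation. Dusp5 and Dusp6 had changes of 2.00 ± 0.49 and 1.76 ± 0.51, and the members of the Spry, Spred and Etv families had no unadjusted p under 0.05.

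Polycomb proteins that work with E2F6, and germline genes that these complexes keep silent, were read beside E2f6. Of 13 measured polycomb partners 0 passed in limma, with 3 higher and 1 lower at an unadjusted p under 0.05 and a median of 0.22. Rnf2, the ubiquitin ligase of the complex, had levels of 8.01, 8.31, 7.61 and 7.90 in null clones 6.8 and 6.9, 12.2 and 12.4, against 7.17 and 6.52 in clones 6 and 12. Its change was 1.11 ± 0.16 (limma, adjusted p = 0.0753), and L3mbtl2 and Suz12 had 0.91 ± 0.18 and 0.77 ± 0.23. The 1 lower was Cbx3, at -0.37 ± 0.14 and below both parents in all 4 null clones. Of 13 germline genes 0 passed in limma and 0 had an unadjusted p under 0.05, their median level was 2.77, under the median of all genes, and the largest change was that of Sycp3 at 0.23 ± 0.20. Of 14 targets of the Myc family 0 passed in limma, with 2 higher and 0 lower at an unadjusted p under 0.05 and a median of -0.01, and the nucleolar protein gene Nop58 had the largest change at 0.96 ± 0.27.

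The promoters were searched for the motifs of the E2F and Myc families, because members of both families are among the 10 genes. RefSeq promoters of assembly GRCm38.p6, from 250 bases before to 50 bases after a start, matched 6 of the 10 genes with 7 windows: Arid3b, Cdc25a, Cdk6, E2f6, Mycn and Nras. On both strands the E2F motif TTTNGCGC was found for Cdc25a and Mycn, and 1.38% of all 32851 promoters hold it. The shorter E2F form TTNGCGC, which lies within it, was found for the same 2 genes and in 6.36% of all promoters, and TTCCCGC was found for none of the 6 and in 4.6%. The E-box CACGTG, which Myc proteins bind, was found for Cdk6 and Nras and in 7.15% of all promoters. The stretches with a match are shown 5′ to 3′ along the gene, with the matches in capitals:
Cdc25a, chr9:109875492-109875539, plus strand: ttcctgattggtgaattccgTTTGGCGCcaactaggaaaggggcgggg
Mycn, chr12:12941977-12942039, minus strand: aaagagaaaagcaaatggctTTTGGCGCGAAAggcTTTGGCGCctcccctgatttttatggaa
Nras, chr3:103058250-103058295, plus strand: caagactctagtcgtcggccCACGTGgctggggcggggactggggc
Cdk6, chr5:3343653-3343698, plus strand: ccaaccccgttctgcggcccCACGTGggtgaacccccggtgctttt
The match for Cdc25a begins 67 bases before the start. Mycn has 3 matches between 183 and 161 bases before its start, the first 2 of which overlap on opposite strands. The E-box begins 15 bases before the start of Nras and 220 before that of Cdk6. These are matches of letters, binding was not measured, and the 2 genes with the longer E2F motif had changes of 0.26 and -0.75 where the 2 with the E-box had 0.97 and 2.06. Arid3b and E2f6, searched without a match to any of these motifs, had 0.96 and 0.87. A relation between motif and change was not tested.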

How the data were processed

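Affymetrix exon arrays were read for 6 clones, 1 array each. The values deposited by the authors are log2 levels per transcript cluster, and Partek 6.5 and RMA are named in the submitters' processing notes with no role or order. Their genome build: not given in the sources used here. Clusters with a single gene numbered 22781 of 44343, 2085 had more than that and 19477 were unnamed. Symbols were updated by Entrez identifier to assembly GRCm38.p6, which 22485 clusters matched, and the brightest cluster per gene was kept, leaving 18997 genes. The array titled 6.9 has a cell type label of 6.8, and the title was followed.

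The test was a limma fit (version 3.58.1, R 4.3.3) with parental line as a fixed block, which leaves 3 degrees of freedom for the residual. All p-values were adjusted by Benjamini-Hochberg over the 18997 genes and called at 0.05. The parental clone, not a replicate number, links the arrays. The 10 genes, the lists and the tests were chosen with earlier results of these data known. All 10 genes are described, relatives by family, and from each other list those past the threshold or else the one with the largest change. Dusp4, Dusp6, L3mbtl2, Suz12, Cbx3, Ccne1, Rb1, Lin9, Tfdp2, Cdkn1c, Nr6a1, Hic2, Slc20a1, Igf2bp3, Imp3, Col1a2, S100a4, Thy1, Nt5e and Lepr were chosen after their values were seen. Alternatives were no block, a random block, averaged null clones, all clusters, dim genes left out, quantile normalisation, centring, trend with robust moderation, and each array left out. Sequences are from RefSeq.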

Additional observations from a re-analysis of the deposited data

Results flagged for a closer look

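Among 76 sets of null clone values examined with Dixon's test, 2 relatives of the 10 genes had 1 clone far from the rest, where about 1 in 20 sets is picked out by chance at this 95% level. Cdk2 had a log2 level of 8.82 in clone 12.2, below the other null clones, and Rras2 had one of 7.67 in clone 6.8, below the others. None of the 10 genes had such a clone. Cdk4 differed from its parents in opposite directions in the lines, with a change in line 12 minus line 6 of -0.20, which did not pass in the interaction contrast in limma.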

How the results depend on the processing

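None of the 10 genes passed the threshold under any of the 14 alternatives, and all 139 values kept their sign, Mycn not being tested with dim genes left out. Their lowest adjusted p in limma was 0.0569, for Cdk6 with trend and robust moderation. Over all genes limma called 67 higher and 153 lower without the block, 3 and 12 with null clones of a line averaged, 64 and 169 with trend and robust moderation, 20 higher with all clusters and 51 higher with dim genes left out. Without 1 array there were 0 to 3 higher and 0 to 15 lower, and 0 of both without clone 6 or clone 12, although 1654 genes without clone 6 and 1493 without clone 12 had an unadjusted p under 0.05. Some relatives and other genes with changes near 0 turned sign. Cdk4 had 0.20 after quantile normalisation and 0.061 with arrays centred, Mycl 0.029 with arrays centred and E2f8 -0.0077 with all clusters. With 1 array left out the range was -0.12 to 0.082 for Cdk4, -0.16 to 0.037 for Mycl, -0.27 to 0.067 for Dicer1, -0.77 to 0.54 for Ccnd1, -0.040 to 0.23 for E2f1, -0.13 to 0.17 for E2f2 and -0.081 to 0.54 for Sycp3. After quantile normalisation the difference between lines was -0.063 for Plagl2 and -0.091 for E2f5. The cause was not tested. Igf2bp1 missed the threshold with null clones averaged, with all clusters at 2.99, and without any 1 array other than 6.9.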
